A study of Mus musculus with 4 samples.

Results

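The epidermal growth factor (EGF) family ligands Areg, Ereg, Hbegf, Tgfa, Btc, Egf and Nrg1 and the receptors Egfr, Erbb2 and Erbb3 were measured in lung tumors and non-tumor lung of mice with and without the transcription factor Nrf2. These 10 genes were chosen by name, from the probes whose transcript accession belongs to one of them. They were read by 21 of the 41170 probes kept, and they are 10 of 32300 genes and transcripts on the array. All 10 were well above background on at least 1 array, and 7 were so on all 4 arrays. Well above background is the scanner software's own call for a spot. The amphiregulin gene Areg gave the widest tumor difference measured on both arrays of a pair, in each genotype. Areg and the epiregulin gene Ereg were also higher in Nrf2-/- than in Nrf2+/+ tumor, and Egfr was lower in tumor of both genotypes.

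The 4 groups were Nrf2-/- and Nrf2+/+ lung tumors and Nrf2-/- and Nrf2+/+ non-tumor lung, all from female ICR mice aged 6 months. Every group, the non-tumor lung included, came from mice given 1 g/kg urethane by intraperitoneal injection, and tissue was taken 16 weeks later. Urethane is a carcinogen that induces lung adenomas and adenocarcinomas in mice. Surface tumors between 1.0 and 1.5 mm in diameter were excised. Tissue of 8 mice per group was pooled before RNA was extracted, and each pool was hybridised to 1 Agilent whole-genome array, so no spread between mice or between arrays can be given. The ± value beside each difference is the scanner software's own error for the spots, on the log2 scale, and does not cover the spread between mice. The labels do not describe the Nrf2 allele, and they do not say whether the 2 tissues of a genotype were taken from the same mice.

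EGF family ligands are made as membrane-anchored precursors and are released at the cell surface by proteases such as ADAM17. Areg, Tgfa and Egf bind the receptor encoded by Egfr; Ereg, Btc and Hbegf bind it and also ErbB4, and neuregulins such as Nrg1 bind ErbB3 and ErbB4. Erbb2 encodes a receptor with no known ligand of its own that pairs with the others, and Erbb3 encodes one with little kinase activity. In the lung, signalling through these receptors is known for roles in epithelial repair and in adenocarcinoma.

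The genes of Epgn, Ereg, Areg and Btc lie next to each other on mouse chromosome 5, in that order in the RefSeq gene table. Of the 10 genes, 6 had a promoter window in the RefSeq table of build GRCm38.p6 (250 bases before to 50 bases after the start). The windows of Areg and of its neighbour Btc are shown because these genes of 1 cluster gave tumor differences of unlike size, and that of Egfr because its transcript was lower in tumor. Areg lies at chr5:91139349-91139648 on the plus strand, Btc at chr5:91402945-91403244 on the minus strand and Egfr at chr11:16751953-16752252 on the plus strand. Capitals mark a full cyclic AMP response element, TGACGTCA.
Areg: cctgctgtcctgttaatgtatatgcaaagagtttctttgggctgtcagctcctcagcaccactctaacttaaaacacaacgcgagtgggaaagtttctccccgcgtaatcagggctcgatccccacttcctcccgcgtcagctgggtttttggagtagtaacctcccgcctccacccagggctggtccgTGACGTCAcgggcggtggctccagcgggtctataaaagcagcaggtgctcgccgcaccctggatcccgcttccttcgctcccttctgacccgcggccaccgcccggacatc
Btc: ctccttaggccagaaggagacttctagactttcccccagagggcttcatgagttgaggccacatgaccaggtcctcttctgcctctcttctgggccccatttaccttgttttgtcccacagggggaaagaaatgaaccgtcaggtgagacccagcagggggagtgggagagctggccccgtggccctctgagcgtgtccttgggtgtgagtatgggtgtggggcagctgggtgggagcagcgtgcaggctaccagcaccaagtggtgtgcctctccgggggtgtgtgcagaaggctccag
Egfr: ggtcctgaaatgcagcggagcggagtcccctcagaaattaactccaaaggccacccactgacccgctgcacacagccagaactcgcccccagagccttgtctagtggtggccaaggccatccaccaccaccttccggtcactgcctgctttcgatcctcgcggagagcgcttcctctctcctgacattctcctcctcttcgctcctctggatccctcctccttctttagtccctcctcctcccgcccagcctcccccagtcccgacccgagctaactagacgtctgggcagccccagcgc
The element in the Areg window begins 61 bases before the start. It was the only match in the windows of these genes to 4 motifs searched on both strands, which were TGACGTCA, the AP-1 site TGANTCA, the core of the antioxidant response element TGACNNNGC and the E-box CACGTG. Over all 32851 promoter windows, 1.79% held TGACGTCA, 7.81% TGANTCA, 12.4% TGACNNNGC and 7.15% CACGTG. A match of letters does not show that a factor binds there.

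The genotype labels were checked on the targeted gene. Nfe2l2, which encodes Nrf2, had signals of 6.94 in Nrf2-/- tumor and 7478 in Nrf2+/+ tumor, against 5.13 in Nrf2-/- and 7913 in Nrf2+/+ non-tumor lung. Both probes of Nfe2l2 were well above background on the 2 Nrf2+/+ arrays and on neither Nrf2-/- array. The share of spots well above background was 54.2% in Nrf2-/- tumor and 56.2% in Nrf2+/+ tumor, against 62.1% in Nrf2-/- and 63.5% in Nrf2+/+ non-tumor lung. Signals below are as the scanner gave them, and the tumor arrays were dimmer as a whole, with 75th percentiles of 584.1 in Nrf2-/- tumor and 555.1 in Nrf2+/+ tumor, against 742 in Nrf2-/- and 759.9 in Nrf2+/+ non-tumor lung. Fold changes and log2 differences were taken after scaling each array to that percentile. The scaled ratio of tumor to non-tumor lung is therefore above the ratio of the signals. A fold lower in tumor, as for Egfr, is thus smaller than the signals give. The Nrf2+/+ non-tumor array lay alone on slide 1 and the other 3 lay on slide 2. The tumor difference in Nrf2+/+ mice and the genotype difference in non-tumor lung therefore cross slides, where slide and group cannot be told apart, while the other 2 comparisons lie within slide 2.

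Of the 7 ligands, Areg was measured furthest from its non-tumor level among those well above background on all arrays. Its signal was 720 in Nrf2-/- tumor and 279 in Nrf2+/+ tumor, against 96.8 in Nrf2-/- and 51.7 in Nrf2+/+ non-tumor lung, in the scanner's intensity units. Both tumor pools lay above both non-tumor pools. After scaling, Areg was 9.45-fold higher in tumor of Nrf2-/- mice (log2 difference 3.24 ± 0.22) and 7.4-fold higher in tumor of Nrf2+/+ mice (2.89 ± 0.25). With normexp background correction in place of the scanner's, these differences were 2.34 and 1.81 on the log2 scale. Amphiregulin is a growth factor for epithelial cells that injured epithelium and several kinds of immune cell can make.

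Epiregulin, the product of Ereg, is a ligand with low affinity and long-lasting signalling. The Ereg signal was 96.9 in Nrf2-/- tumor and 41.2 in Nrf2+/+ tumor, against 8.25 in Nrf2-/- and 5.13 in Nrf2+/+ non-tumor lung. It was well above background in both tumor pools and in neither non-tumor pool, so a fold is given as a bound against the lowest signal well above background on the dim array. Ereg was at least 5.99-fold higher in tumor of Nrf2-/- mice and at least 2.59-fold higher in tumor of Nrf2+/+ mice. With normexp, the measured difference was 1.39 in Nrf2-/- mice and 0.87 in Nrf2+/+ mice on the log2 scale.

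Hbegf encodes the heparin-binding ligand, whose human form is also the diphtheria toxin receptor. Its signal was 2820 in Nrf2-/- tumor and 2615 in Nrf2+/+ tumor, against 1509 in Nrf2-/- and 1458 in Nrf2+/+ non-tumor lung. The 2 genotypes lay close together in each tissue, and both tumor pools lay above both non-tumor pools. Hbegf was 2.37-fold higher in tumor of Nrf2-/- mice (1.25 ± 0.20) and 2.45-fold higher in tumor of Nrf2+/+ mice (1.30 ± 0.20). Scaling on spike-in probes brought the first of these to 0.97, just under the 2-fold mark.

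Btc encodes betacellulin, which was first found in pancreatic beta-cell tumors. Its signal was 37.6 in Nrf2-/- tumor and 58 in Nrf2+/+ tumor, against 31.8 in Nrf2-/- and 39.4 in Nrf2+/+ non-tumor lung. The Nrf2+/+ tumor pool was the brightest, and the spot errors were 5.27 to 7.76 units. The log2 difference between tumor and non-tumor lung was 0.58 ± 0.37 in Nrf2-/- mice and 1.01 ± 0.31 in Nrf2+/+ mice, the second a 2.02-fold difference at the edge of the mark that fell short of it with spike-in scaling and with normexp. A second Btc probe was well above background on no array.

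Egf, the ligand that names the family, had a signal of 32.8 in Nrf2-/- tumor and 61.1 in Nrf2+/+ tumor, against 36.6 in Nrf2-/- and 35 in Nrf2+/+ non-tumor lung. The Nrf2+/+ tumor pool stood above the other 3, and the Nrf2-/- tumor spot was not well above background. Egf was 2.39-fold higher in tumor of Nrf2+/+ mice (1.26 ± 0.31), and 0.68 on the log2 scale with normexp. In Nrf2-/- mice the measured difference was 0.19 ± 0.40.

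Tgfa encodes transforming growth factor alpha, a ligand made by many epithelia. Its signal was 83.5 in Nrf2-/- tumor and 78.5 in Nrf2+/+ tumor, against 75.6 in Nrf2-/- and 94.9 in Nrf2+/+ non-tumor lung. The pools lay close together, and in Nrf2+/+ mice the order of tumor and non-tumor lung turns with the scaling. After scaling to the 75th percentile, the tumor differences were 0.49 ± 0.25 in Nrf2-/- mice and 0.18 ± 0.24 in Nrf2+/+ mice on the log2 scale, both within 2-fold. Across the scalings and background corrections tried, the difference in Nrf2+/+ mice lay between -0.03 and 0.47.

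Nrg1 encodes neuregulin 1, which acts through ErbB3 and ErbB4. The brightest of its 3 probes read 15.8 in Nrf2-/- tumor and 5.19 in Nrf2+/+ tumor, against 52.1 in Nrf2-/- and 50.5 in Nrf2+/+ non-tumor lung. It was well above background in both non-tumor pools and in neither tumor pool. Nrg1 was at least 1.4-fold lower in tumor of Nrf2-/- mice and at least 1.6-fold lower in tumor of Nrf2+/+ mice, neither bound past the mark. The other 2 probes were well above background on no array. The Schwann cell marker Sox10 read 15.6 in Nrf2-/- tumor and 12.1 in Nrf2+/+ tumor, against 26.6 in Nrf2-/- and 32.4 in Nrf2+/+ non-tumor lung, and was not well above background in either tumor pool. S100b, which these cells also express, read 64.2 in Nrf2-/- tumor and 92.5 in Nrf2+/+ tumor, against 85.9 in Nrf2-/- and 167 in Nrf2+/+ non-tumor lung. After scaling, the S100b tumor difference was -0.08 in Nrf2-/- mice and -0.40 in Nrf2+/+ mice on the log2 scale. The measured Sox10 values were -0.43 in Nrf2-/- mice and -0.97 in Nrf2+/+ mice. The part of Schwann cells in the Nrg1 difference was not tested.

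**Figure D1:**
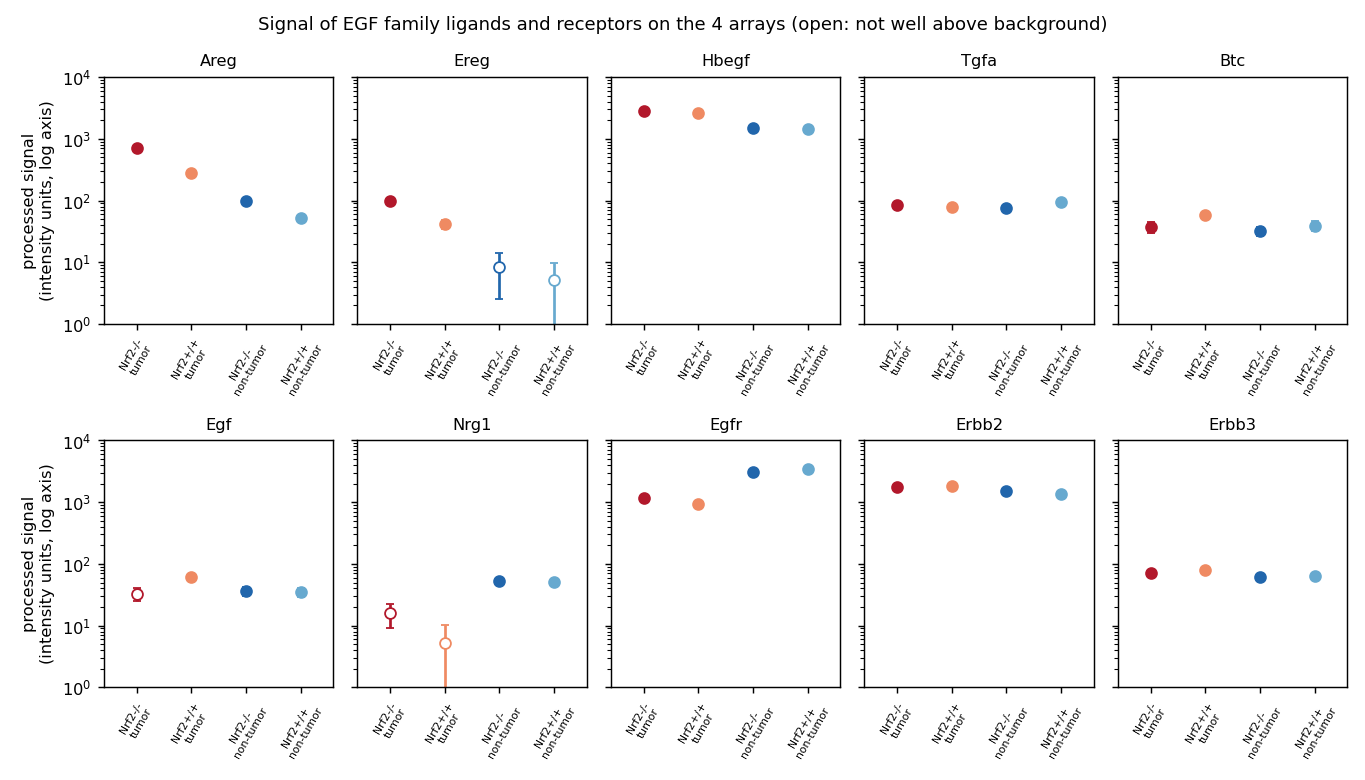
Processed signal (intensity units, log axis) of the 10 genes in the 4 pools, by the probe that represents each gene. Points are single pooled arrays, bars the scanner software's spot error (cut at the lower end of the axis), and open points were not well above background; Areg runs from 720 in Nrf2-/- tumor to 51.7 in Nrf2+/+ non-tumor lung, while Egfr is lower in both tumor pools.

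Among the receptors, Egfr was lower in tumor and the other 2 were somewhat higher. The probe that represents Egfr, on transcript NM_207655, read 1158 in Nrf2-/- tumor and 919 in Nrf2+/+ tumor, against 3111 in Nrf2-/- and 3468 in Nrf2+/+ non-tumor lung. Both tumor pools lay below both non-tumor pools. Egfr was 2.12-fold lower in tumor of Nrf2-/- mice (-1.08 ± 0.20) and 2.76-fold lower in tumor of Nrf2+/+ mice (-1.46 ± 0.20). With each array scaled to its median, the value in Nrf2-/- mice was -0.94, within the 2-fold mark.

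The array holds 4 Egfr probes, and all 4 were brighter in non-tumor lung. On the transcript NM_007912, one probe read 198 in Nrf2-/- tumor and 131 in Nrf2+/+ tumor, against 534 in Nrf2-/- and 569 in Nrf2+/+ non-tumor lung. Its log2 differences were -1.09 ± 0.21 in Nrf2-/- mice and -1.66 ± 0.21 in Nrf2+/+ mice. A second probe of that transcript gave -1.27 ± 0.22 in Nrf2-/- mice and -1.56 ± 0.22 in Nrf2+/+ mice, so the size of the difference was alike on probes of both transcripts. The remaining dim probe, on NM_207655, was well above background in both non-tumor pools and in neither tumor pool, and was at least 1.01-fold lower in tumor of Nrf2-/- mice and at least 1.88-fold lower in tumor of Nrf2+/+ mice.

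**Figure D2:**
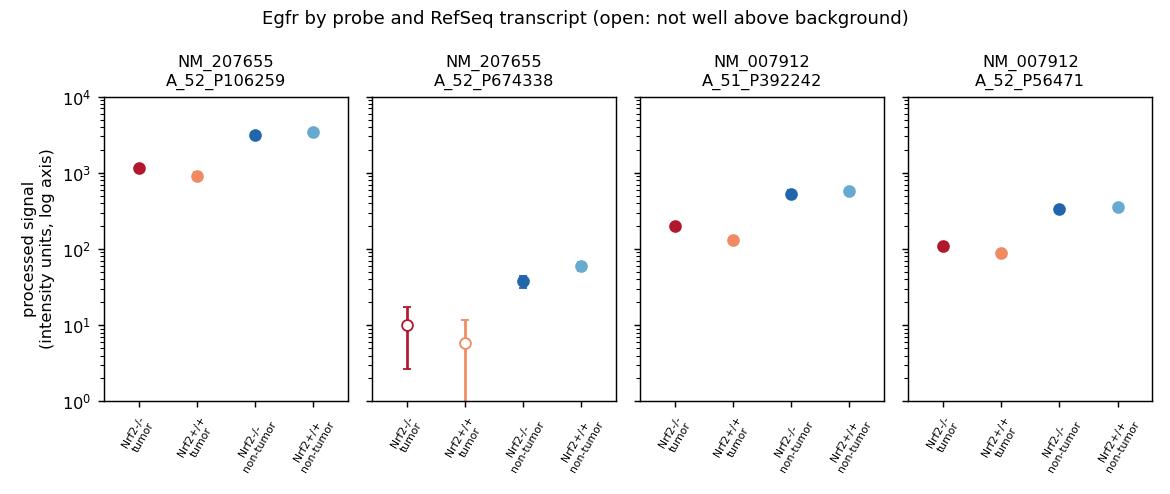
Processed signal (intensity units, log axis) of the 4 Egfr probes in the 4 pools, each panel headed by its RefSeq transcript and probe name. Points are single pooled arrays, bars the spot error (cut at the lower end of the axis), open points not well above background; every probe is lower in tumor than in non-tumor lung in both genotypes.

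Erbb2 read 1793 in Nrf2-/- tumor and 1828 in Nrf2+/+ tumor, against 1510 in Nrf2-/- and 1334 in Nrf2+/+ non-tumor lung. Its tumor difference was 0.60 ± 0.20 in Nrf2-/- mice and 0.91 ± 0.20 in Nrf2+/+ mice, under the 2-fold mark in both. A dimmer second probe gave 0.49 ± 0.25 in Nrf2-/- mice and 0.82 ± 0.25 in Nrf2+/+ mice. The best of 4 Erbb3 probes read 70.4 in Nrf2-/- tumor and 78.5 in Nrf2+/+ tumor, against 60.3 in Nrf2-/- and 63.4 in Nrf2+/+ non-tumor lung. For Erbb3 the differences were 0.57 ± 0.26 in Nrf2-/- mice and 0.76 ± 0.25 in Nrf2+/+ mice. None of the other 3 Erbb3 probes was well above background on all arrays.

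Counted over the family, 3 of the 10 genes were past 2-fold higher in tumor of Nrf2-/- mice (Areg, Ereg and Hbegf) and 1 was past 2-fold lower (Egfr). Over all 19426 genes measured in that comparison, 5.38% were past 2-fold higher and 5.82% past 2-fold lower. In Nrf2+/+ mice 5 of the 10 were past 2-fold higher (Areg, Ereg, Hbegf, Btc and Egf) and 1 was past 2-fold lower (Egfr), where 7.83% of 19913 genes were past 2-fold higher and 11.2% past 2-fold lower. The median log2 difference of the 10 was 0.58 in Nrf2-/- mice and 0.96 in Nrf2+/+ mice, against a median of -0.03 over all genes in each genotype. In both genotypes, 8 of the 10 differences were above 0. With spike-in scaling, Tgfa in Nrf2+/+ mice (-0.03) and Egf in Nrf2-/- mice (-0.09) fell below 0.

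**Figure D3:**
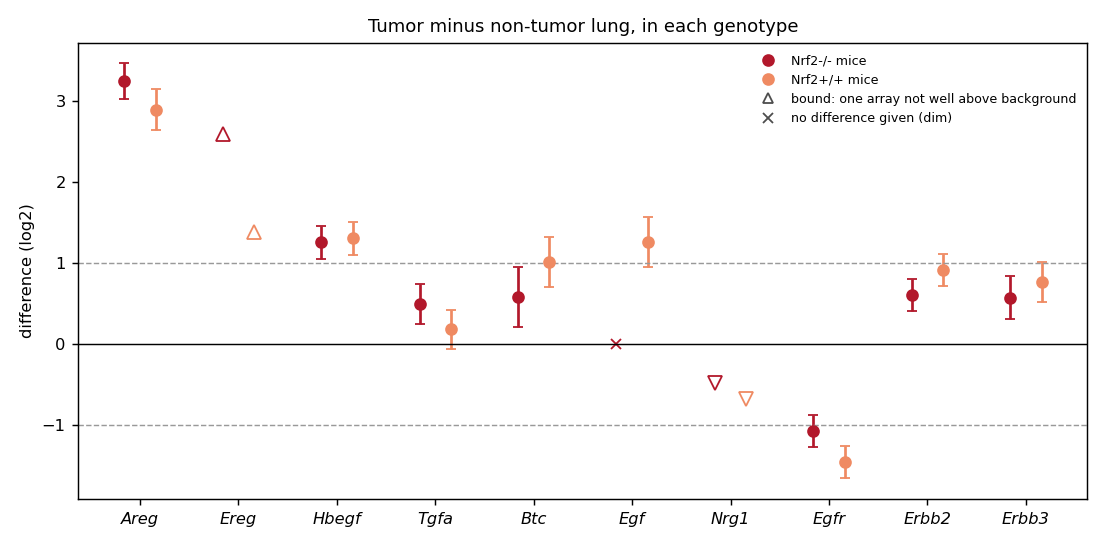
Tumor minus non-tumor lung (log2) for each gene, Nrf2-/- mice left of Nrf2+/+ mice. Points are differences between 2 pooled arrays with the scanner software's error as bars, open triangles are bounds, the cross marks a dim pair with no bound, and dashed lines mark 2-fold; Areg lies at 3.24 and 2.89 and Egfr at -1.08 and -1.46.

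The single test the arrays allowed was an additive fit of tissue and genotype with limma over 20553 genes, whose spread comes from 1 residual degree of freedom per gene, the departure from additivity. No gene reached an adjusted p of 0.05 for tissue or for genotype (0% each), and the count at an unadjusted p under 0.05 was 6095 genes for tissue, 8 of the 10 among them, and 1911 for genotype, 2 of the 10 among them. The tissue effect of Areg was 3.06 with a standard error of 0.18 (limma, adjusted p = 0.0705), and that of Egfr -1.27 with a standard error of 0.19 (limma, adjusted p = 0.0776). Across the 11 settings of the fit, the adjusted p for tissue lay between 0.000899 and 0.0769 for Areg, between 0.00349 and 0.0775 for Hbegf and between 0.00482 and 0.0857 for Egfr. When only the 16287 genes bright on all 4 arrays were fitted, 6 of 7 of the family passed for tissue (Areg, Hbegf, Btc, Egfr, Erbb2 and Erbb3), where 23.7% of all genes did. In that fit 0 of 7 passed for genotype, where 0.927% of all genes did. In data simulated on these 20553 genes, with 20353 of them unchanged, the main form of the fit called 0 of 50 genes changed 16-fold. On the real arrays 6095 genes had an unadjusted p under 0.05 for tissue (limma), and that count was not kept for the simulation. How many genes differ between the real tissues is not known and need not match the simulated number. The simulation therefore does not give the chance that the real fit calls a changed gene. With 1 residual degree of freedom per gene, a lack of calls is no sign that a gene is unchanged.

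The tumor pools of the 2 genotypes were past 2-fold apart in Areg and Ereg. In tumor, Areg was 2.45-fold higher in Nrf2-/- than in Nrf2+/+ mice (1.29 ± 0.21), and Ereg was 2.24-fold higher (1.16 ± 0.31). In non-tumor lung, Areg was 1.92-fold higher in Nrf2-/- mice (0.94 ± 0.26), just under the mark, and Ereg was not well above background in either genotype. With normexp the Ereg difference between tumors was 0.61 and no longer past 2-fold. Of the 9 members measured, these 2 were past 2-fold higher in Nrf2-/- tumor, where 3.73% of 17824 genes were so. Past 2-fold lower were 0 of the 9 members and 458 of the 17824 genes. With spike-in scaling, Egf passed the mark on the lower side.

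Between the non-tumor pools, 0 of 9 measured members were past 2-fold between genotypes, where 5.86% of 20190 genes were so in either direction. The genotype effect common to both tissues was 1.12 for Areg, with a standard error of 0.18 (limma, adjusted p = 0.373). For Ereg the fit gave 0.94 (limma, adjusted p = 0.413), but its non-tumor signals were not well above background in either genotype. An Ereg effect common to both tissues was therefore not measured. The Ereg value was 0.56 with dim levels raised to background and 0.36 with normexp. Over the settings of the fit, the adjusted p for genotype lay between 0.0608 and 0.402 for Areg and between 0.23 and 0.734 for Ereg.

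Among the other ligands, Hbegf differed by 0.04 ± 0.20 in tumor and 0.08 ± 0.20 in non-tumor lung. Btc was lower in Nrf2-/- tumor by a log2 difference of -0.70 ± 0.35. The measured Egf difference in tumor was -0.97 ± 0.37, with the Nrf2-/- spot not well above background. With normexp it was -0.36. On the probe that represents each receptor, the differences between genotypes ranged from -0.23 for Erbb3 to 0.26 for Egfr in tumor, and from -0.12 for Egfr to 0.21 for Erbb2 in non-tumor lung. The differences of Egfr in tumor (0.26 ± 0.20) and of Erbb2 in non-tumor lung (0.21 ± 0.20) were slightly larger than their spot error, and those of the other representing probes were smaller. Of the further Egfr probes, 1 for NM_007912 differed by 0.52 ± 0.22 in tumor and the dim one for NM_207655 by -0.63 ± 0.31 in non-tumor lung.

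**Figure D4:**
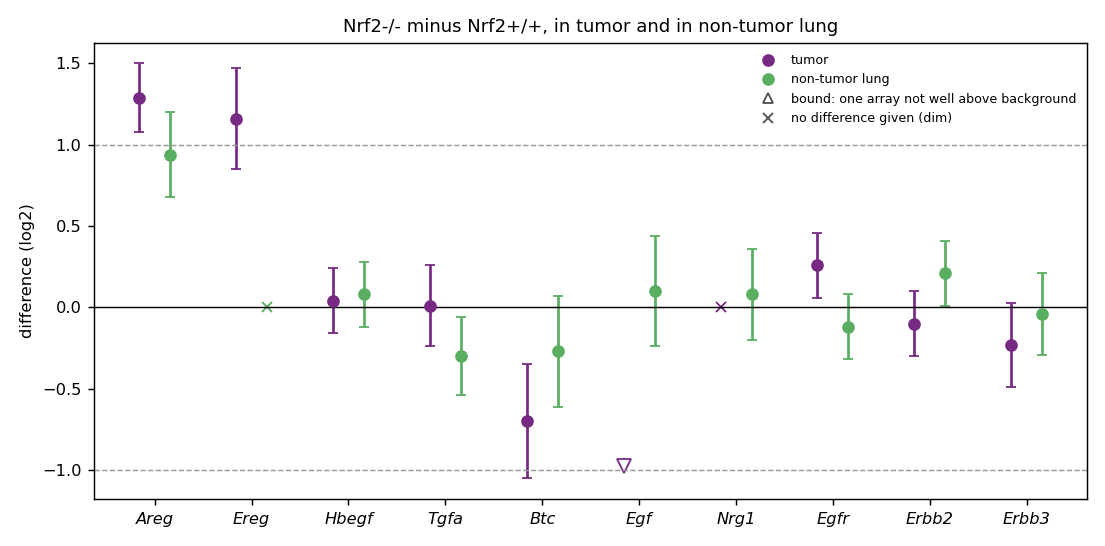
Nrf2-/- minus Nrf2+/+ (log2) for each gene, in tumor (left of each pair) and in non-tumor lung (right). Points are differences between 2 pooled arrays with the scanner software's error as bars. Crosses mark pairs that were dim on both arrays, and dashed lines mark 2-fold. The open triangle, labelled a bound, is Egf in tumor at its measured difference, with the Nrf2-/- spot not well above background. With scaling to the 75th percentile, Areg (1.29) and Ereg (1.16) in tumor pass 2-fold.

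Markers of other cell types moved between the same arrays. In bulk tissue, fewer cells of a type and less RNA per cell cannot be told apart. All 4 measured mesothelial markers were past 2-fold higher in Nrf2-/- than in Nrf2+/+ tumor, with a summed level relative to the 75th percentile of 8.21 in Nrf2-/- tumor and 3.86 in Nrf2+/+ tumor, and the mesothelial factor Wt1 was not well above background in Nrf2+/+ tumor. In non-tumor lung 3 of 4 were past the mark, with sums of 23.8 in Nrf2-/- and 11.9 in Nrf2+/+ mice. Over all genes, 3.73% of 17824 were past 2-fold higher in Nrf2-/- than in Nrf2+/+ tumor. In non-tumor lung 481 of 20190 genes were past 2-fold higher in Nrf2-/- mice. Macrophage markers summed to 294 in Nrf2-/- tumor and 253 in Nrf2+/+ tumor. All 7 measured were higher in Nrf2-/- tumor, by a median of 0.69 on the log2 scale, with 1 past the mark. T and innate lymphoid markers summed to 3.39 in Nrf2-/- tumor and 2.35 in Nrf2+/+ tumor, and all 6 measured were higher in Nrf2-/- tumor, by a median of 0.60 on the log2 scale, with 0 past the mark. Ciliated cell markers were past 2-fold lower in Nrf2-/- than in Nrf2+/+ tumor for 4 of 5 measured genes, where 458 of 17824 genes were so. Their sums were close, at 8.08 in Nrf2-/- tumor and 8.27 in Nrf2+/+ tumor, and the brightest marker, Tppp3, differed by 0.19. Platelet markers were past 2-fold lower in Nrf2-/- mice for 3 of 4 both in tumor and in non-tumor lung. In non-tumor lung 703 of 20190 genes were past 2-fold lower. The part of these cells in the Areg and Ereg differences was not tested.

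Between tumor and non-tumor lung, alveolar type 2 markers were past 2-fold higher for 6 of 10 genes in Nrf2-/- mice and 8 of 10 in Nrf2+/+ mice, with sums of 1380 in Nrf2-/- tumor and 834 in its non-tumor lung, and of 1330 in Nrf2+/+ tumor and 709 in its non-tumor lung. Endothelial markers were past 2-fold lower for 4 of 7 genes in Nrf2-/- mice and 5 of 7 in Nrf2+/+ mice, and so were alveolar type 1 markers for 1 of 6 in Nrf2-/- and 3 of 6 in Nrf2+/+ mice. Ciliated cell markers were past 2-fold lower for 5 of 6 genes in Nrf2-/- and 6 of 6 in Nrf2+/+ mice, and mesothelial markers for 4 of 4 in each. The endothelial sums were 127 in Nrf2-/- tumor and 246 in its non-tumor lung, and 97.8 in Nrf2+/+ tumor and 236 in its non-tumor lung. T and innate lymphoid markers, from cells that can make amphiregulin, were past 2-fold higher for 0 of 6 genes in either genotype. Past 2-fold lower were 1 of 6 in Nrf2-/- and 3 of 6 in Nrf2+/+ mice. For all the marker lists here, the share of all genes past 2-fold higher was 5.38% in Nrf2-/- and 7.83% in Nrf2+/+ mice. The share past 2-fold lower was 5.82% in Nrf2-/- and 11.2% in Nrf2+/+ mice. With 6 genes, 0 higher is near the share over all genes. The T and innate lymphoid sums were 3.39 in Nrf2-/- tumor and 5.16 in its non-tumor lung. In Nrf2+/+ mice they were 2.35 in tumor and 5.31 in non-tumor lung. Of the mast cell and basophil markers, 2 of 4 measured were past 2-fold higher and 1 lower in Nrf2-/- mice, and 1 of 3 was higher and 1 lower in Nrf2+/+ mice. Hdc, the histamine-forming enzyme, was 2.20 higher in Nrf2-/- and 2.70 higher in Nrf2+/+ mice. The mast cell chymase gene Cma1 was lower, at -1.15 in Nrf2-/- and -1.80 in Nrf2+/+ mice. The basophil protease gene Mcpt8, named after its values were seen, was at least 2.97-fold higher in Nrf2-/- tumor and was dim on the other 3 arrays. The mast cell genes Cpa3, Ms4a2 and Tpsb2 were not well above background on any array. The part of any of these cells in the differences of Areg, Hbegf or Egfr was not tested.

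Of the rest of the family, Epgn and Nrg4 were measured and Erbb4 and Nrg3 were not well above background on any array. Epgn encodes epigen, a further ligand of the cluster on chromosome 5, and read 82.7 in Nrf2-/- tumor and 83.9 in Nrf2+/+ tumor, against 153 in Nrf2-/- and 102 in Nrf2+/+ non-tumor lung. Unlike Ereg and Areg beside it, Epgn was within 2-fold in both tumor comparisons, at -0.54 in Nrf2-/- mice and 0.17 in Nrf2+/+ mice. The neuregulin Nrg4 differed by 0.71 in Nrf2-/- mice and 0.74 in Nrf2+/+ mice.

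On both sides of the cluster, the measured neighbours were mixed. On one side lie the chemokine genes Pf4, Cxcl3, Cxcl15 and Cxcl1, and all 4 were past 2-fold higher in tumor of both genotypes, with Cxcl3 at 3.74 on the log2 scale in Nrf2-/- mice and at least 43.1-fold higher in Nrf2+/+ mice. Mthfd2l, the nearest gene on that side, was within 2-fold in Nrf2+/+ mice (0.23) and was not well above background on either array of Nrf2-/- mice. Cxcl1, a neutrophil attractant, read 375 in Nrf2-/- tumor and 147 in Nrf2+/+ tumor, against 236 in Nrf2-/- and 6.82 in Nrf2+/+ non-tumor lung, where the last was not well above background. Like Areg it was past 2-fold higher in Nrf2-/- tumor (1.28), and in non-tumor lung it was at least 11.1-fold higher in Nrf2-/- mice. On the other side, Parm1 was 2.51 higher in tumor of Nrf2-/- mice and 3.45 higher in tumor of Nrf2+/+ mice, while Rchy1, Cdkl2, G3bp2 and Uso1 were within 2-fold in all 4 comparisons. Next to Erbb2 on chromosome 11, Mien1 was 0.94 higher in Nrf2-/- mice and 0.88 higher in Nrf2+/+ mice, close to Erbb2 itself. The adaptor gene Grb7 one place further was 0.94 higher in Nrf2-/- mice and 1.67 higher in Nrf2+/+ mice, and the muscle gene Tcap, on the other side, was at -2.87 in Nrf2-/- mice and -2.62 in Nrf2+/+ mice.

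Of 11 measured genes for enzymes and partners that release ligands, 2 were past 2-fold higher in tumor of each genotype and 0 were past 2-fold lower. For this list and those that follow, the share of all genes past 2-fold higher in tumor was 5.38% in Nrf2-/- and 7.83% in Nrf2+/+ mice, and the share past 2-fold lower was 5.82% in Nrf2-/- and 11.2% in Nrf2+/+ mice. Rhbdl2, which encodes a rhomboid protease that can cleave EGF in human cells, read 548 in Nrf2-/- tumor and 297 in Nrf2+/+ tumor, against 9.81 in Nrf2-/- and 5.93 in Nrf2+/+ non-tumor lung. On the non-tumor arrays it did not clear background, and it was at least 33.8-fold higher in tumor of Nrf2-/- mice and at least 18.7-fold higher in tumor of Nrf2+/+ mice. Adam19, a metalloprotease that can shed neuregulin, was 1.47 higher in Nrf2-/- mice and 1.75 higher in Nrf2+/+ mice. Adam17, the main sheddase of Areg, differed by 0.19 in Nrf2-/- mice and -0.12 in Nrf2+/+ mice (named after its values were seen). Between genotypes 1 of 10 was past the mark in non-tumor lung (5.86% of all genes), Adam8, which was 1.05 higher in Nrf2-/- mice and was likewise named after its values were seen.

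Receptor inhibitors and turnover genes were mostly within 2-fold. Of 14 measured, 0 were past 2-fold higher and 1 was past 2-fold lower in each genotype. That gene was Lrig3, of a family whose member Lrig1 restrains ErbB receptors, at -1.04 in Nrf2-/- mice and -1.30 in Nrf2+/+ mice. Among partners on the cell surface and chaperones, 2 of 11 were past 2-fold higher in Nrf2-/- mice and 3 of 11 in Nrf2+/+ mice. The mucin gene Muc4, whose product binds ErbB2, was 2.62 higher in Nrf2-/- mice and 1.95 higher in Nrf2+/+ mice. Muc1, also an alveolar type 2 marker, was 1.81 higher in Nrf2-/- mice and 2.15 higher in Nrf2+/+ mice. Of the adaptors, 1 of 16 was past 2-fold higher in Nrf2-/- mice and 2 of 17 in Nrf2+/+ mice, and the adaptor Shc1, at 1.17 in Nrf2-/- mice and 1.39 in Nrf2+/+ mice, was past the mark in both.

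Transcripts that EGF induces early were counted as a list, 17 of them measured. In Nrf2-/- mice 4 were past 2-fold higher in tumor and 1 was past 2-fold lower, and in Nrf2+/+ mice 7 were higher and 1 was lower. The median difference of the list was 0.61 in Nrf2-/- mice and 0.35 in Nrf2+/+ mice. Past the mark in both genotypes were 3 transcription factor genes. Egr1 was 1.72 higher in Nrf2-/- mice and 2.29 higher in Nrf2+/+ mice, and Junb 1.15 higher in Nrf2-/- mice and 1.08 higher in Nrf2+/+ mice. Etv4 was 4.05 higher in Nrf2-/- mice and at least 41.6-fold higher in Nrf2+/+ mice. The MAP kinase phosphatase gene Dusp4 was also past the mark, 1.98 higher in Nrf2-/- mice and 2.33 higher in Nrf2+/+ mice. Dusp1, another phosphatase gene, was lower, at -1.19 in Nrf2-/- mice and -1.38 in Nrf2+/+ mice. Between the tumors of the 2 genotypes 1 of 17 was past the mark, Etv4, lower in Nrf2-/- tumor by a log2 difference of -1.02. Over all 17824 genes measured there, 458 were past 2-fold lower and 664 past 2-fold higher. Areg and Ereg were higher in Nrf2-/- tumor.

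**Figure D5:**
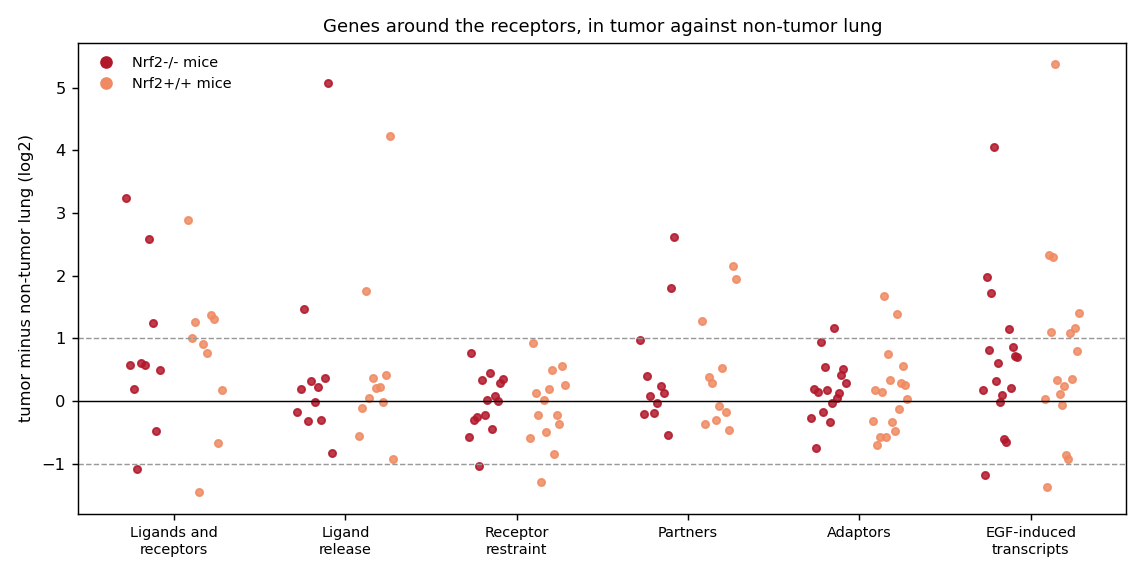
Tumor minus non-tumor lung (log2) of every measured gene in 6 lists, Nrf2-/- mice left of Nrf2+/+ mice in each. Points are genes, a gene below background on 1 array is drawn at its bound or, with none, at its measured difference, and dashed lines mark 2-fold; the highest point of the ligand-release list is Rhbdl2 and that of the EGF-induced list is Etv4.

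For the genes past 2-fold the same way in both genotypes, the most similar profiles over the 4 arrays were found among 12282 named genes, by Euclidean distance between log2 levels after each gene's mean was taken off. Nearest to Areg were Pglyrp1, Ckmt1 and B3gnt7, at distances of 0.49 to 0.54. Pglyrp1, a peptidoglycan-binding protein gene, was 3.15 higher in tumor of Nrf2-/- mice and 2.63 higher in tumor of Nrf2+/+ mice. Nearest to Ereg, whose profile includes signals below background, were Orm1, Col15a1 and Il4i1 at 0.57 to 0.70. Hbegf had much closer profiles, 3000002C10Rik, Gnptab and Esrp1 at 0.08 to 0.09, and so did Egfr, with Vegfd, Sema6a and Sema3a at 0.04 to 0.05. Vegfd, a growth factor gene for lymphatic vessels, was lower in tumor at -1.06 in Nrf2-/- mice and -1.45 in Nrf2+/+ mice. With 4 arrays such distances describe these pools and nothing more.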

How the data were processed

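RNA of 4 pools, 1 array per group, was read with Agilent Feature Extraction 10.7.3.1 on an array annotated on build mm9, per the file headers. The deposited values are the processed signal, a spot intensity on a linear scale after the software's background subtraction and detrending, per the file headers. How arrays were scaled to each other is not given in the sources used here. Their value table equalled it within 0.5%, on the linear scale and uncentred, with column medians of 50.1 (Nrf2-/- tumor), 47.2 (Nrf2+/+ tumor), 70 (Nrf2-/- non-tumor lung) and 79.2 (Nrf2+/+ non-tumor lung). The number of arrays limits the precision.

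From these, log2 levels were taken and each array's 75th percentile subtracted, spots of a probe were averaged, and a gene was read by its brightest probe on average. Flagged spots were left out. Names came from accessions through a RefSeq table (GRCm38.p6), for 26683 of 41170 probes, and several Egfr, Erbb3, Btc, Tgfa and Nrg1 probes are dim. Differences were counted at 2-fold for genes that cleared background on 1 or both arrays of a pair, and a gene dim on 1 array was counted by its bound. Limma 3.58.1 (R 4.3.3) fitted tissue plus genotype with eBayes and Benjamini-Hochberg adjustment at 0.05, tested on simulated data first. Other steps used Python 3.11.15, numpy 2.4.6, pandas 2.3.3 and matplotlib 3.10.9. Genes named were the 10 members, list members past 2-fold the same way in both genotypes or both tissues (at most 6 per list), the 3 nearest profiles and 5 neighbours on each side of 2 loci. The members and lists were chosen with earlier results of these data known. Part of the Schwann cell list is not reported here. The files hold no mean signal column, so normexp used the median signal with an offset of 50. A planned search of the ligand proteins for the EGF-like module was not run. Alternatives were other scalings, background corrections, filters, fold marks, probe summaries and the value table.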

Additional observations from a re-analysis of the deposited data

Results flagged for a closer look

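For 4 genes the 2 genotypes differed one way in non-tumor lung and the other way in tumor. Each sign rests on 1 pooled array per group, and the difference between the tissues was not tested. Egf was 0.97 lower on the log2 scale in Nrf2-/- than in Nrf2+/+ tumor (-0.97, with the Nrf2-/- spot not well above background) and 0.10 higher in Nrf2-/- non-tumor lung, a gap of -1.07 against a scanner error of 0.51. For Egfr the values were 0.26 in tumor and -0.12 in non-tumor lung, a gap of 0.38 against an error of 0.29 on the probe that represents it, but with median scaling the non-tumor value was 0.02 and the signs were alike. Erbb2 gave -0.10 in tumor and 0.21 in non-tumor lung, a gap of -0.31 against 0.29. Tgfa gave 0.01 in tumor and -0.30 in non-tumor lung, a gap of 0.31 against 0.35, and its tumor value was 0.00 with median scaling and -0.09 with spike-in scaling, where the signs were no longer opposite. For Egf and Erbb2 the signs were opposite under each alternative scaling, background correction and probe summary.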

How the results depend on the processing

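Each alternative value of a single member was set against the interval of the scanner error, which is wide for dim genes. With normexp, Ereg in Nrf2+/+ mice went from 3.46 to 0.87 within it, and Nrg1 from -2.83 to -0.32. The value table holds the same signals, so its values could hardly move. Of 240 alternative values, 4 moved by more than the interval. They were Areg in both genotypes and Ereg in Nrf2-/- mice with normexp, and Egfr in Nrf2+/+ mice with the mean of its probes (-1.90). Across the scalings, the background correction, the probe summary and the value table, the other 236 moved by less. None of the differences past 2-fold changed sign in these, but 8 of the 40 differences did in 1 or more, all of them small: to -0.03 for Tgfa in Nrf2+/+ tumor and -0.09 for Egf in Nrf2-/- tumor with spike-ins, between tumor genotypes to -0.09 for Tgfa and -0.06 for Hbegf with spike-ins, and between non-tumor genotypes to 0.02 for Egfr and 0.11 for Erbb3 with median scaling, 0.13 for Btc and -0.05 for Hbegf with normexp. Of the 4 members past 2-fold in Nrf2-/- tumor, 2 were left at 3-fold. In Nrf2+/+ tumor the count of 6 fell to 3 with normexp and 1 at 3-fold. Between non-tumor genotypes it was 1 (Areg) with median scaling, with quantile normalization and at 1.5-fold, and between tumors 1 with normexp and among genes bright on all arrays, 4 at 1.5-fold and 0 at 3-fold. In the additive fit, 0 members passed for tissue, against 5 with median scaling, 5 with spike-in scaling, 5 with normexp, 6 among genes bright on all arrays, 2 with no filter, 6 with an eBayes trend and 3 with dim levels raised to background, an alternative chosen after seeing the data. Over all genes, 0 passed for tissue in the fit as reported, 2141 with median scaling, 2871 with spike-ins, 3188 with normexp, 3864 among genes bright on all arrays, 769 with no filter, 4634 with the trend and 1458 with raised levels. The causes were not tested. For genotype 0 members passed in every setting, while over all genes 0 passed in the fit as reported, 78 with median scaling, 53 with normexp, 151 among genes bright on all arrays, 246 with the trend and 0 or 1 in the others. The all-gene median shifted under median scaling by 0.14 in Nrf2-/- and 0.29 in Nrf2+/+ tumor, and under spike-in scaling by -0.28 in Nrf2-/- and -0.20 in Nrf2+/+ tumor. The share of higher genes among those past 2-fold was 48.0% in Nrf2-/- tumor and 41.1% in Nrf2+/+ tumor, and became 61.6% in Nrf2-/- and 64.1% in Nrf2+/+ tumor with median scaling, and 26.0% in Nrf2-/- and 27.5% in Nrf2+/+ tumor with spike-ins. Using measured signals below background, also chosen after seeing the data, Nrg1 was past 2-fold lower in both tumor comparisons. A fit with slide as a block was not run because nothing is left to estimate the spread from, and its coefficients equal the differences within slide 2. No paired analysis was possible because no group has 2 arrays and the labels do not say whether the 2 tissues came from the same mice.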
